A study of Sus scrofa with 24 samples.

Results

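Amino acid breakdown enzymes take amino acids that are not used for protein synthesis to pyruvate, to intermediates of the citric acid cycle or to ketone precursors, and the liver carries out most of these reactions. The members were 10 enzymes, chosen with earlier results of these data known. Among them were TDO2 and KMO for tryptophan, TAT and HPD for tyrosine, GOT1 for aspartate and CTH for the sulfur amino acids. The others were SDS for serine, HAL for histidine, AASS for lysine and ABAT for the amino acid GABA. Probes of the 10 enzymes were sought by gene name or description on a pig expression array. Of the 10 enzymes, 9 had a probe, while for TAT, which removes the amino group of tyrosine, no probe was found by gene name or description. The 9 enzymes were read by 20 of the 43603 probes, and all 20 were kept by the filter for signal above background. In the rat liver, several of these enzymes, among them TDO2, TAT and SDS, are known to be induced by glucocorticoids or by protein-rich diets.

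Liver RNA of 24 pigs (Sus scrofa) of 115 kg body weight was measured, with 1 array per pig and 8 pigs in each of 3 groups from a selection experiment. RFI, residual feed intake, is the feed eaten beyond what growth and maintenance predict. The groups were high RFI pigs held to the intake of the low RFI pigs (labelled RFIplR, here restricted high RFI), high RFI pigs fed ad libitum (RFIpl) and low RFI pigs fed ad libitum (RFIneg). The pigs of both high RFI groups thus share a selection line and differ in feeding level, high and low RFI pigs differ in line under ad libitum feeding, and restricted high RFI and low RFI pigs differ in line at a matched feeding level. The labels give no sex, litter or fasting state.

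Levels are given on a log2 scale on which 0 is the array's 75th percentile of signal, and a difference of 1 is a doubling. Between 63.2% and 72.7% of the spots of an array were well above background, with 67.4% ± 2.81 in restricted high RFI, 70.2% ± 2.28 in high RFI and 67.8% ± 2.77 in low RFI pigs (SD, n = 8 each). Arrays correlated with each other at r = 0.971 to 0.991 over the 29665 probes kept. Of 9 hepatocyte markers, 8 were on the array and all 8 were above background, and their summed linear level ranged from 2154 to 2375 in restricted high RFI, from 2067 to 2535 in high RFI and from 2216 to 2406 in low RFI livers. In whole tissue, fewer cells of a type and less RNA per cell cannot be told apart.

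The probes were 60 bases long. The following 6 are shown as the scanner output gives them, 5′ to 3′, and none shares a run of 16 bases with a probe of another gene name. They are the brightest probes of TDO2, KMO, HAL and HPD, another HAL probe, and the dimmest SDS probe. The SDS differences below and the correlations of SDS with other enzymes are those of its brightest probe, P039086, which is not shown. Probes of GOT1, CTH, AASS and ABAT are not shown either.
TDO2 probe P116907: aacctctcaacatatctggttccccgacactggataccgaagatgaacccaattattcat
KMO probe P146821: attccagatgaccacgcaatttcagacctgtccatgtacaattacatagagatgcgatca
SDS probe P021071: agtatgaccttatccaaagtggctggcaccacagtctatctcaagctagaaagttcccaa
HAL probe P647569: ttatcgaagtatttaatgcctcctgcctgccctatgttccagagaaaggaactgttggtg
HAL probe P588181: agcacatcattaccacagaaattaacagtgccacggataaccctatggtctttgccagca
HPD probe P077976: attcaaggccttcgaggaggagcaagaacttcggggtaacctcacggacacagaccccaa

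No enzyme passed the test in any comparison, with limma and a threshold of 0.05 on the adjusted p over all 29665 probes. The share of all probes called was 0% in the comparison of restricted high with high RFI pigs, 0.162% in that of high with low RFI pigs, 0.222% in that of restricted high with low RFI pigs, and 0.212% in the F test over the 3 groups. At an unadjusted p below 0.05, which is no call, 5 of 9 enzymes stood higher in restricted high than in low RFI livers (GOT1, TDO2, CTH, KMO and AASS), where 12.7% of all probes passed that level in either direction. The enzymes were chosen with earlier results of these data known, so this count is no independent evidence. This count takes each enzyme by its brightest probe. Over all their probes it was 11 of 20, among them the other 3 probes of HAL, whose brightest probe did not pass. The same level was passed by 1 of 9 enzymes between restricted high and high RFI pigs (CTH), against 5.33% of all probes, and by 1 of 9 between high and low RFI pigs (GOT1), against 9.52%. In the F test it was passed by 4 of 9 enzymes (GOT1, CTH, TDO2 and KMO), against 10.7% of all probes. With single pigs left out, the F test count was 1 without restricted pig 8 and 2 without any 1 of restricted pigs 4 and 7 or low RFI pigs 2, 3, 4 and 6. The count between high and low RFI pigs was 0 without any 1 of high RFI pigs 1, 2, 3 and 7 or low RFI pigs 1, 5, 7 and 8, and 2 without high RFI pig 4. Between restricted high and high RFI pigs it was 2 without restricted pig 5. Shares of all probes are not given with single pigs left out, so these moves cannot be read as particular to the enzymes.

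The median difference over the 9 enzymes was 0.39 for restricted high minus low RFI, where the mean of all 9 was above that of the low RFI pigs and the median over all probes was -0.01. It was 0.12 for restricted high minus high RFI, with 8 of 9 above 0 and a median over all probes of -0.01. For high minus low RFI the median was 0.14, with 8 of 9 above 0 and a median over all probes of 0.00. Each group serves in 2 of these comparisons, so their values are not independent of each other. The choice of the enzymes with earlier results known bears on these medians too. Within the first scan day, which held 5 restricted high, 4 high and 3 low RFI arrays, the medians were 0.18 for restricted high minus high, 0.10 for high minus low and 0.44 for restricted high minus low RFI. Within the second scan day, with 3, 4 and 5 arrays in the same order, they were 0.00, 0.18 and 0.23.

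**Figure D1:**
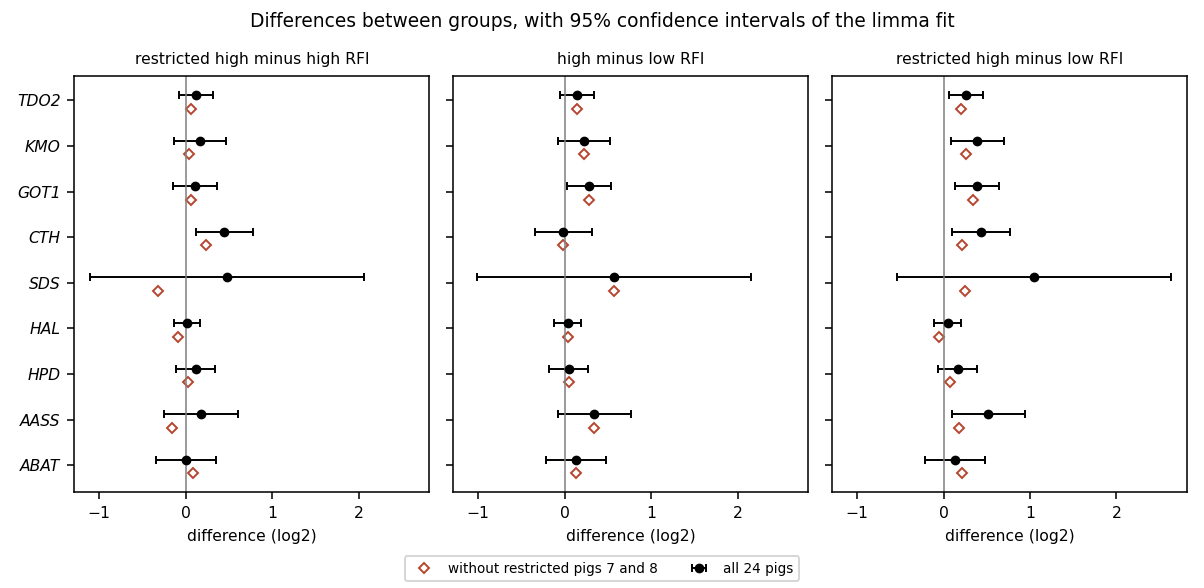
Differences of group means of the 9 enzymes (brightest probe), on the log2 scale, in 3 comparisons; black points are the fit to all 24 pigs with 95% confidence intervals, and open diamonds are the differences when restricted high RFI pigs 7 and 8 are left out. In the right panel the interval lies above 0 for GOT1, TDO2, CTH, KMO and AASS, and every diamond in that panel except that of ABAT lies to the left of its black point.

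TDO2 opens the breakdown of tryptophan along the kynurenine pathway and is found mainly in liver. Its level lay between 6.79 and 7.55 (median 7.39) in restricted high RFI, between 6.82 and 7.39 (median 7.24) in high RFI and between 6.91 and 7.14 (median 7.05) in low RFI pigs. The groups overlapped, although 7 of 8 restricted high RFI pigs and 7 of 8 high RFI pigs were above the low RFI mean. The difference was 0.26 ± 0.10 for restricted high minus low RFI (SE, adjusted p = 0.246), 0.12 for restricted high minus high RFI (adjusted p = 0.960) and 0.14 for high minus low RFI (adjusted p = 0.692). The low RFI pigs were close together, with an SD of 0.075, against 0.25 in restricted high RFI pigs. The lowest value of the restricted group was that of pig 5, which was also its lowest for KMO, SDS and CTH.

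KMO turns kynurenine, a product further along that pathway, into hydroxykynurenine. It ranged from 2.78 to 3.95 (median 3.33) in restricted high RFI, from 2.70 to 3.53 (median 3.24) in high RFI and from 2.54 to 3.33 (median 2.94) in low RFI pigs. The ranges overlapped, and the highest value, 3.95, was that of restricted pig 8. The difference for restricted high minus low RFI was 0.39 ± 0.15 (SE, 1.31-fold, adjusted p = 0.255), with 7 of 8 restricted pigs above the low RFI mean. It was 0.17 for restricted high minus high RFI (adjusted p = 0.966) and 0.22 for high minus low RFI (adjusted p = 0.673).

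HPD, hydroxyphenylpyruvate dioxygenase, acts on the product that TAT makes from tyrosine. Its brightest probe, P077976, lay between 4.28 and 5.07 (median 4.64) in restricted high RFI, between 4.21 and 4.77 (median 4.54) in high RFI and between 4.26 and 4.66 (median 4.47) in low RFI pigs. The groups overlapped, and restricted pig 7 had the highest value. The differences were 0.16 for restricted high minus low RFI (adjusted p = 0.568), 0.12 for restricted high minus high RFI (adjusted p = 0.966) and 0.05 for high minus low RFI (adjusted p = 0.927). Of the other HPD probes, P710958 gave differences from -0.04 to 0.12 and P306079 from -0.16 to 0.26, and none had an unadjusted p below 0.05. Probes P077976 and P306079 varied together only weakly between pigs of a group (r = 0.39, adjusted permutation p = 0.113 over 19 probe pairs, n = 24), and without restricted pigs 7 and 8 their r was 0.05.

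GOT1, the cytosolic aspartate aminotransferase, moves the amino group between aspartate and glutamate. It had the smallest p of the 9 enzymes in the F test (adjusted p = 0.312). The brightest of its 4 probes, P659989, ranged from 5.14 to 6.16 (median 5.54) in restricted high RFI, from 5.06 to 5.67 (median 5.56) in high RFI and from 5.01 to 5.54 (median 5.18) in low RFI pigs. Both high RFI groups were centred above the low RFI pigs, with 7 of 8 restricted and 7 of 8 ad libitum high RFI pigs above the low RFI mean, and all ranges overlapped. The difference was 0.39 ± 0.12 for restricted high minus low RFI (SE, 1.31-fold, adjusted p = 0.174), 0.28 ± 0.12 for high minus low RFI (SE, 1.21-fold, adjusted p = 0.468) and 0.11 for restricted high minus high RFI (adjusted p = 0.972). The other 3 probes gave 0.32 to 0.45 for restricted high minus low RFI, each with an unadjusted p below 0.05, and 0.18 to 0.31 for high minus low RFI. All 4 probes varied together between pigs of a group, with r between 0.77 and 0.94. In the restricted group, pig 4 was highest on each of the 4 probes.

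CTH, cystathionine gamma-lyase, releases cysteine from cystathionine in the path that leads from methionine. It was the enzyme with the largest separation of restricted from ad libitum high RFI pigs relative to its error. Its level ranged from 5.44 to 6.87 (median 6.06) in restricted high RFI, from 5.18 to 5.79 (median 5.71) in high RFI and from 5.31 to 5.91 (median 5.67) in low RFI pigs. The 2 ad libitum groups covered nearly the same range, and 6 of 8 restricted pigs were above the mean of each. The difference was 0.45 ± 0.16 for restricted high minus high RFI (SE, 1.36-fold, adjusted p = 0.869) and 0.43 ± 0.16 for restricted high minus low RFI (SE, 1.35-fold, adjusted p = 0.248), while for high minus low RFI it was -0.01 (95% confidence interval -0.35 to 0.32). Restricted pigs 8 and 7 had the highest CTH values of all 24 pigs, 6.87 and 6.58, and without them the 2 differences against the restricted group were 0.23 and 0.22.

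**Figure D2:**
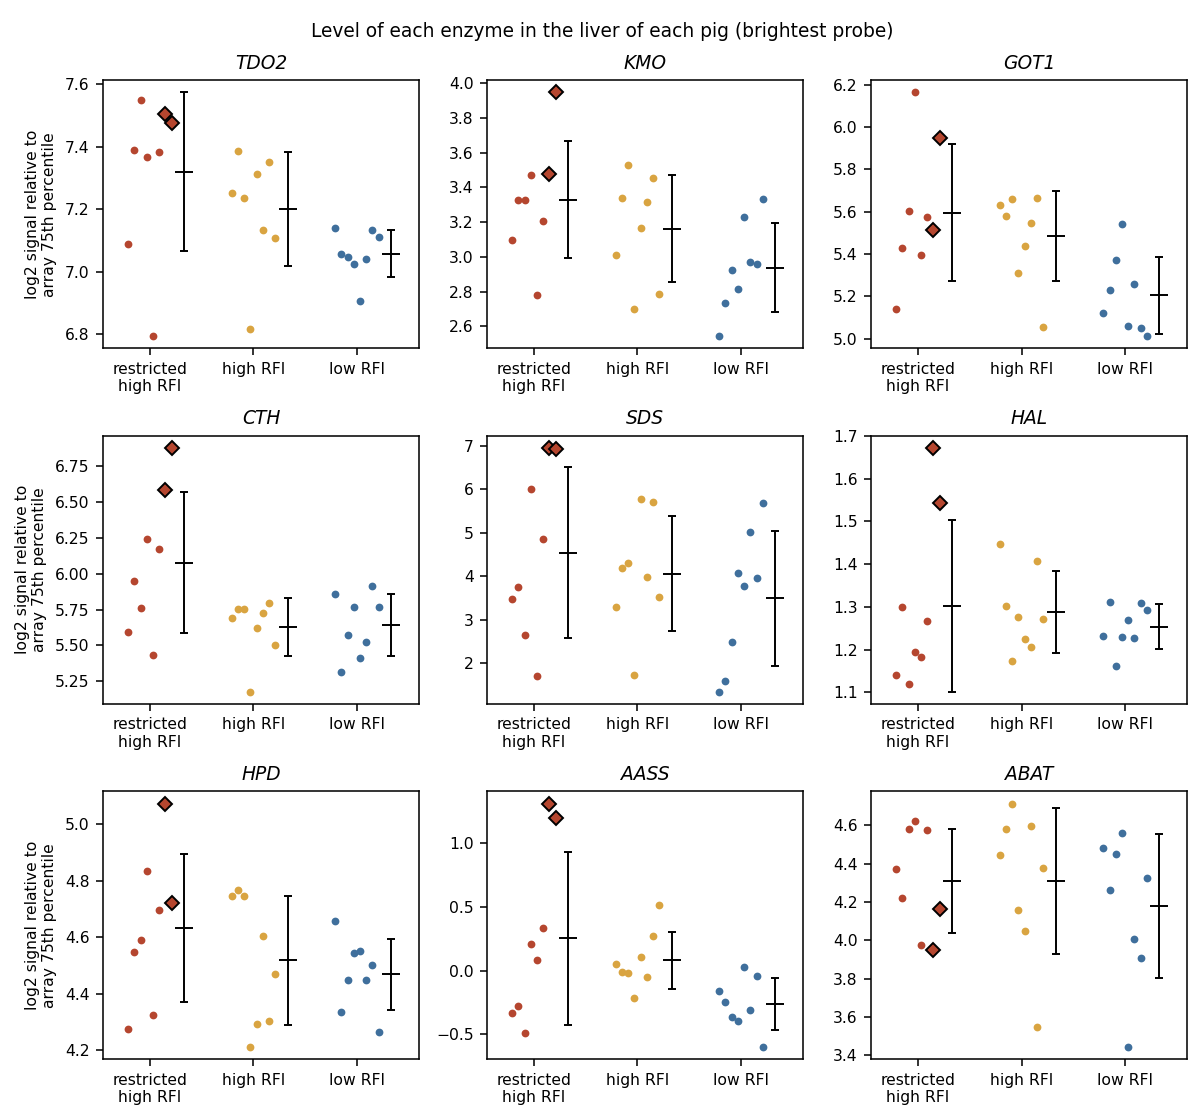
Level of each of the 9 enzymes in each of 24 livers (brightest probe, log2 signal relative to the array's 75th percentile, a separate y axis per panel); points are pigs, diamonds are restricted high RFI pigs 7 and 8, and bars give mean ± SD of 8 pigs. The 3 groups overlap in every panel, and SDS spans from 1.35 to 6.95.

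SDS, serine dehydratase, turns serine into pyruvate and ammonia. Its brightest probe, P039086, ranged from 1.72 to 6.95 (median 4.31) in restricted high RFI, from 1.72 to 5.78 (median 4.09) in high RFI and from 1.35 to 5.67 (median 3.86) in low RFI pigs. Pigs with low and with high values were present in every group. From the lowest to the highest pig the signal differed 48.3-fold, and the SD between pigs of a group, 1.63, was larger than that of 99.8% of all probes kept, whose median was 0.27. The 3 probes varied together between pigs of a group, with r between 0.988 and 0.998 over 24 pigs, and P488254 had a span of 59.7-fold. Probe P021071 was near background, being well above it in 7 of 8 restricted high, 7 of 8 high and 6 of 8 low RFI pigs, so no span is given for it. The difference was 1.05 ± 0.77 for restricted high minus low RFI (SE, 2.07-fold, adjusted p = 0.612), 0.48 ± 0.77 for restricted high minus high RFI (adjusted p = 0.982) and 0.57 ± 0.77 for high minus low RFI (adjusted p = 0.859). The 95% confidence interval of the difference for restricted high minus low RFI ran from -0.53 to 2.63. Without restricted pigs 7 and 8 it was 0.25 for restricted high minus low RFI and -0.32 for restricted high minus high RFI.

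HAL, histidase, removes the amino group of histidine to give urocanate, and its 4 probes differed in how much they varied. The brightest, P647569, varied least, with 1.12 to 1.67 (median 1.23) in restricted high RFI, 1.17 to 1.45 (median 1.27) in high RFI and 1.16 to 1.31 (median 1.25) in low RFI pigs. Its differences were 0.05 for restricted high minus low RFI (adjusted p = 0.829), 0.01 for restricted high minus high RFI (adjusted p = 0.997) and 0.03 for high minus low RFI (adjusted p = 0.924). Its SD between pigs of a group, 0.13, was larger than that of only 5.09% of all probes kept, whereas those of the other 3 probes, all 0.56 to 0.57, were larger than that of 89.9% to 90.2%.

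On P588181, HAL lay between -2.37 and -0.38 (median -2.04) in restricted high RFI, between -2.71 and -1.30 (median -2.21) in high RFI and between -2.87 and -2.15 (median -2.59) in low RFI pigs. The difference for restricted high minus low RFI was 0.83 ± 0.27 on this probe (SE, 1.78-fold, adjusted p = 0.180), with 8 of 8 restricted pigs above the low RFI mean. On P455827 and P013776, which share a run of 57 of their 60 bases, it was 0.80 and 0.81 (adjusted p = 0.204 and 0.199). The unadjusted limma p of the 3 probes was 0.0047 to 0.0065, against 0.524 for P647569, and which of the probes measures HAL mRNA of the liver is not known here. These 3 probes correlated at r = 0.939 to 0.988 with each other and at 0.708 to 0.736 with P647569, and without restricted pigs 7 and 8 their r with P647569 was 0.096 to 0.228. Pigs 7 and 8 were the 2 highest of 24 on each of the 4 probes. Without them the difference for restricted high minus low RFI was -0.05 on P647569 and 0.36 to 0.42 on the other 3 probes.

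**Figure D3:**
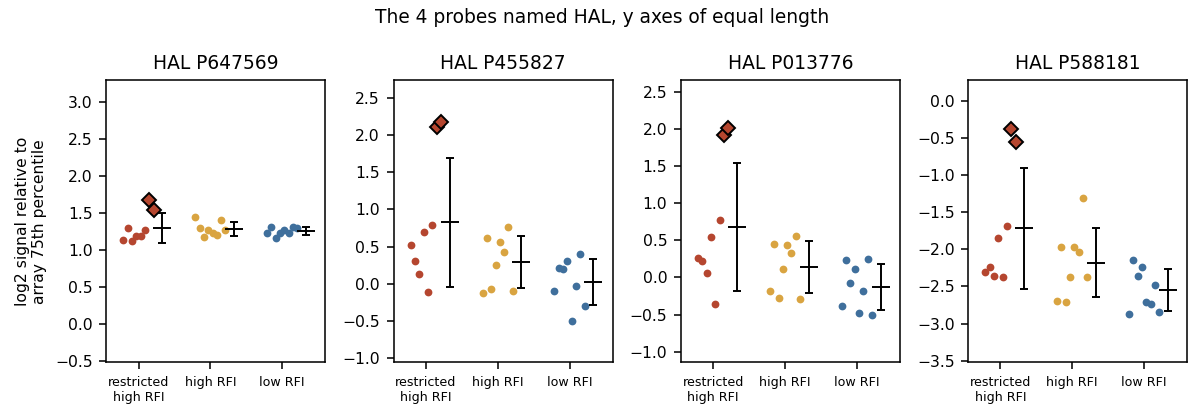
Level of the 4 probes named HAL in each pig (log2 scale with the array's 75th percentile at 0, y axes of equal length, bars are mean ± SD of 8 pigs, diamonds are restricted high RFI pigs 7 and 8). The left probe, the brightest, spans 1.12 to 1.67, and the other 3 span about 2.5 to 2.7 on the log2 scale, with the diamonds on top.

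AASS carries out the opening steps of lysine breakdown in mitochondria. Its level ranged from -0.49 to 1.31 (median 0.15) in restricted high RFI, from -0.21 to 0.51 (median 0.02) in high RFI and from -0.60 to 0.03 (median -0.28) in low RFI pigs. All 8 ad libitum high RFI pigs were above the low RFI mean, against 5 of 8 restricted pigs, and restricted pigs 1, 2 and 3 were below it. The difference was 0.52 ± 0.21 for restricted high minus low RFI (SE, adjusted p = 0.282), 0.34 ± 0.21 for high minus low RFI (adjusted p = 0.635) and 0.17 ± 0.21 for restricted high minus high RFI (adjusted p = 0.972). Restricted pigs 7 and 8 had 1.31 and 1.20, where no other pig exceeded 0.51. Without them the SD between pigs of a group was 0.25 in place of 0.43. The difference was then 0.18 for restricted high minus low RFI and -0.16 for restricted high minus high RFI.

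ABAT, GABA transaminase, takes the amino group from GABA, and it also acts in valine and beta-alanine breakdown. On its brightest probe it ranged from 3.95 to 4.62 (median 4.30) in restricted high RFI, from 3.55 to 4.71 (median 4.41) in high RFI and from 3.44 to 4.56 (median 4.29) in low RFI pigs. The differences were 0.00 for restricted high minus high RFI (95% confidence interval -0.35 to 0.34), 0.13 for high minus low RFI (-0.22 to 0.48) and 0.13 for restricted high minus low RFI (-0.22 to 0.48). Its second probe gave 0.24 for high minus low RFI (unadjusted limma p = 0.013, adjusted p = 0.378) and correlated with the first at r = 0.67.

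Restricted high RFI pigs 7 and 8 stood apart from the other 22 pigs on part of the probes. Both exceeded every other pig on 9 of the 20 probes. These were all probes of SDS and HAL and those of CTH and AASS, thus 4 enzymes. Of the HAL probes, 2 share a run of 57 of their 60 bases. How many of all probes set both pigs on top was not counted, so the number says nothing particular to these enzymes. For SDS, pigs 7 and 8 had 6.95 and 6.92, where the other 22 pigs reached at most 6.01. TDO2, KMO, GOT1, HPD and ABAT did not set both of them on top, although at least 1 of them ranked high for 4 of these. On the brightest probe, pigs 7 and 8 ranked 2 and 3 of 24 for TDO2, 3 and 1 for KMO and 1 and 6 for HPD. They ranked 11 and 2 for GOT1 and 21 and 16 for ABAT. The arrays of pigs 7 and 8 were on different slides and read on different scan days. Summed neutrophil markers (3 of 4 on the array, all well above background on at least 23 of 24 arrays) were highest in these pigs within their group, 0.85 and 0.78, against 0.19 to 0.52 in the other restricted pigs, and ranged from 0.16 to 0.46 in high RFI and from 0.20 to 2.15 in low RFI pigs. Of the 9 marker lists summed, only that of neutrophils had pigs 7 and 8 ranked 1 and 2 in their group. By markers of Kupffer cells and macrophages they ranked 7 and 3, and by those of endothelium 7 and 6. Whether the neutrophil markers bear on the enzymes was not tested.

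Leaving out pigs 7 and 8, a choice made after their values were seen, changed the counts in all 3 comparisons. At an unadjusted p below 0.05, 1 of 9 enzymes (GOT1) then stood higher in restricted high than in low RFI pigs, against 2977 of all 29665 probes, and no enzyme differed between restricted high and high RFI pigs, against 5.04% of all probes. Between high and low RFI pigs the count was 2 of 9 (GOT1 and AASS) in place of 1, against 2978 of all 29665 probes. In the F test it was 2 of 9 in place of 4, for which the share of all probes is not given. The median difference of the 9 enzymes was 0.21 for restricted high minus low RFI, 0.04 for restricted high minus high RFI and 0.14 for high minus low RFI. GOT1 kept a difference of 0.34 for restricted high minus low RFI (adjusted p = 0.369).

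**Figure D4:**
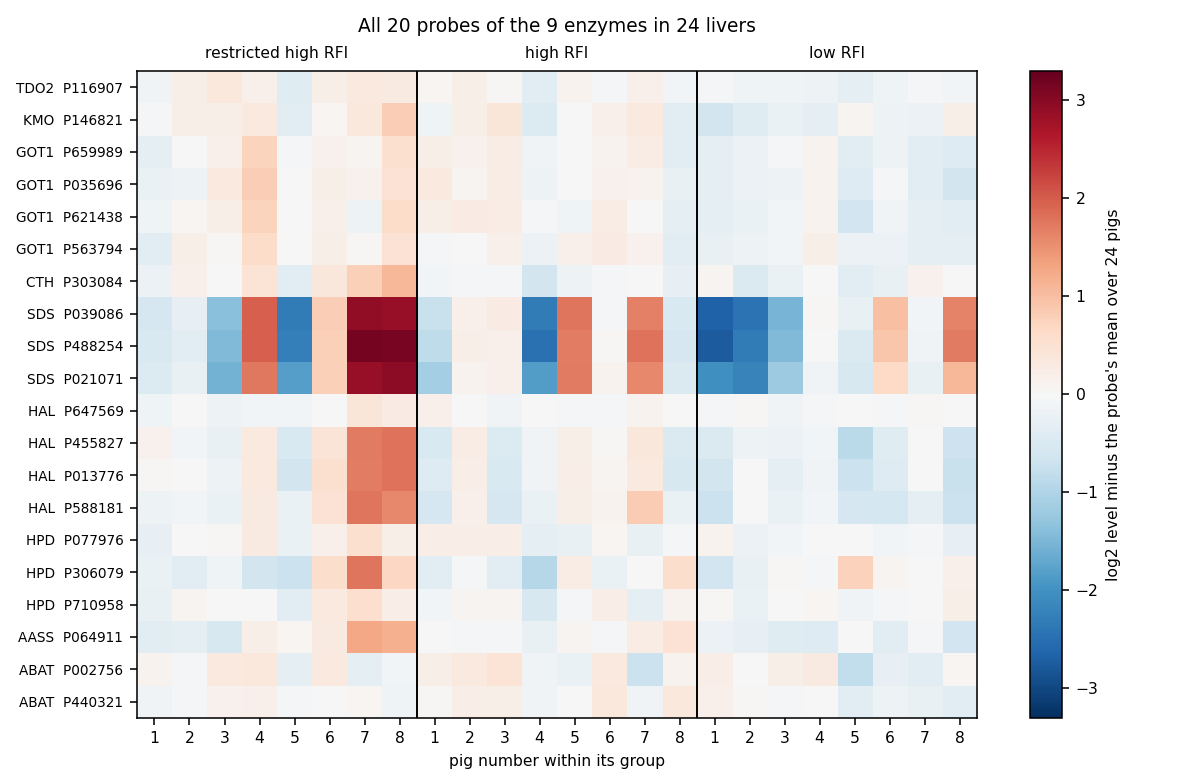
All 20 probes of the 9 enzymes (rows, with probe number) in 24 livers (columns, by group and pig number); colour gives the log2 level minus the probe's mean over 24 pigs, from blue (lower) to red (higher). The 3 SDS rows show the widest spread and nearly the same order of pigs. Restricted high RFI pigs 7 and 8 are red in the rows of SDS, CTH, AASS and 3 of the 4 HAL probes. On HPD probe P306079 these 2 pigs had 4.52 and 3.44, above its mean of 2.75.

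Enzymes of different pathways varied together between pigs of the same group. After group means were subtracted, 32 of the 36 pairs of enzymes had a positive correlation, and 10 pairs, all positive, passed a two-sided permutation test within groups with Benjamini-Hochberg adjustment over the 36 pairs. The number of pairs that passed was 22 after normexp background correction, 22 with slide means also subtracted, 6 by Spearman's rho, 4 on scan day 1 alone and 0 on scan day 2 alone. Pigs were permuted within groups and not within slides, so the count with slide means subtracted cannot be compared with the others. Pairs of other genes were not counted, so the number of pairs says nothing particular to these enzymes. Without restricted pigs 7 and 8, 3 of these 10 pairs passed, and no other pair did. KMO and SDS correlated at r = 0.77 (adjusted permutation p = 0.00216) and rho = 0.75 (adjusted permutation p = 0.00432), and at r = 0.73 without pigs 7 and 8. Their r was 0.82 and 0.72 within the first and second scan days, and 0.70 without the 2 pigs farthest from the KMO median.

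TDO2 and CTH correlated at r = 0.70 (adjusted permutation p = 0.00828) and rho = 0.60 (adjusted permutation p = 0.0359). Their r was 0.72 without pigs 7 and 8, 0.80 without the 2 pigs farthest from the TDO2 median, and 0.77 and 0.65 within the scan days. CTH and HPD correlated at r = 0.66 (adjusted permutation p = 0.0121) and rho = 0.66 (adjusted permutation p = 0.0194). Here r was 0.64 without pigs 7 and 8, which were also the pigs farthest from the CTH median, and 0.67 and 0.71 within the scan days.

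HAL entered these pairs by its brightest probe, P647569, and its other probes were not correlated with the other enzymes. HAL and AASS had the highest r of all pairs, 0.78 (adjusted permutation p = 0.0193), with rho = 0.59 (adjusted permutation p = 0.0469). It rested on pigs 7 and 8 and was 0.29 without them. The same holds for CTH with AASS (r = 0.67 with and 0.25 without these pigs) and for CTH with HAL (r = 0.64 with and 0.21 without them). CTH with SDS had r = 0.72 over 24 pigs and 0.60 over 22 pigs, with adjusted permutation p of 0.00828 and 0.0578. The 4 negative correlations over 24 pigs were all of ABAT, whose 8 pairs ranged from -0.42 with HAL to 0.28 with HPD and did not pass. All levels of a pig come from the same array, so a shared array effect is part of these correlations.

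**Figure D5:**
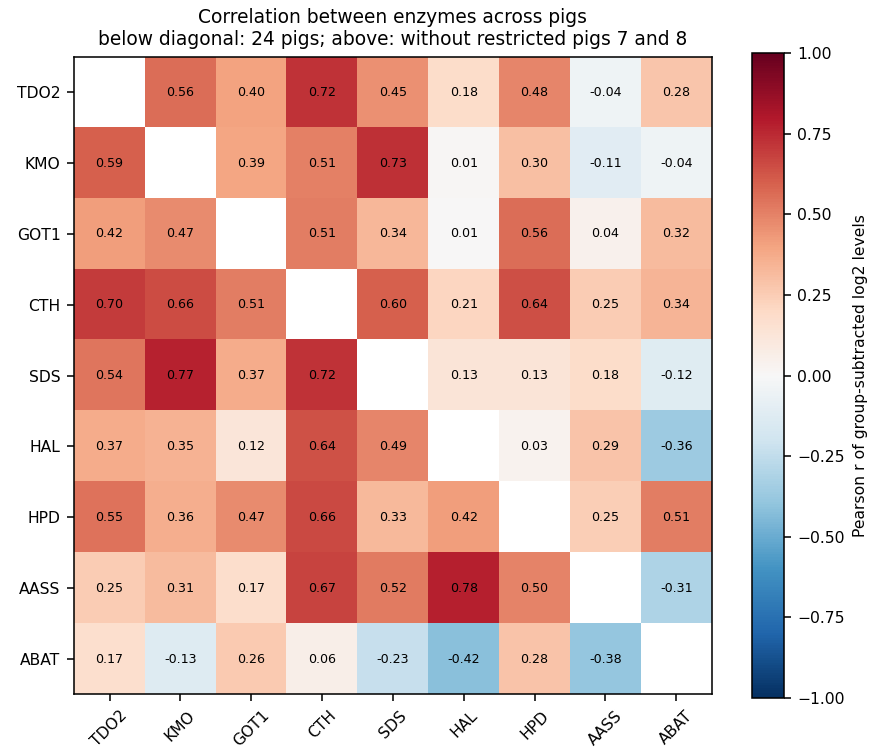
Pearson r between the 9 enzymes (brightest probe of each) across pigs after group means were subtracted, below the diagonal over 24 pigs and above it over 22 pigs without restricted high RFI pigs 7 and 8. KMO with SDS (0.77 and 0.73), TDO2 with CTH (0.70 and 0.72) and CTH with HPD (0.66 and 0.64) differ little between the parts below and above the diagonal, whereas HAL with AASS is 0.78 below and 0.29 above.

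Other enzymes of amino acid breakdown were taken from a list of 77 genes, of which 43 were on the array and 42 were tested. None passed the test in any of the 3 comparisons. At an unadjusted p below 0.05, 3 were higher and 0 lower in restricted high than in high RFI pigs. In high compared with low RFI pigs, 4 were higher and 2 lower. In restricted high compared with low RFI pigs, 4 were higher and 1 lower. The share of all probes at that level, in either direction, was 5.33%, 9.52% and 12.7% in the same order. The median differences of the 42 genes were 0.02, 0.02 and 0.06 in the same order, against 0.12, 0.14 and 0.39 for the 9 enzymes. The enzymes and the lists were chosen with earlier results of these data known, so this contrast is no independent evidence. Of 9 regulators by hormones and fasting, 7 were tested and none passed, with medians of 0.18, 0.14 and 0.32.

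Between restricted high and low RFI pigs, the smallest p among these genes was that of KYAT1, which removes the amino group of kynurenine. It averaged 3.08 ± 0.77 in restricted high and 2.22 ± 0.42 in low RFI pigs (SD, n = 8 each), a difference of 0.86 ± 0.25 (SE, adjusted p = 0.134), and pigs 7 and 8 had the 2 highest of 24 values, 4.39 and 3.95. Without them the difference was 0.49 (adjusted p = 0.355). GOT2, the mitochondrial partner of GOT1, averaged 3.96 ± 0.24 in restricted high and 3.63 ± 0.25 in low RFI pigs (difference 0.33, adjusted p = 0.246). Without pigs 7 and 8 the difference of GOT2 was 0.38 (adjusted p = 0.295). KLF15, a transcription factor known from mouse liver to promote amino acid breakdown, averaged 5.51 ± 0.66 in restricted high and 4.92 ± 0.36 in low RFI pigs (difference 0.58, adjusted p = 0.254), and its 2 highest values were those of pigs 8 and 7. Without them its difference was 0.31 (adjusted p = 0.617). IVD, which acts in leucine breakdown, averaged 1.17 ± 0.40 in restricted high and 1.64 ± 0.30 in low RFI pigs (difference -0.47, adjusted p = 0.254). Without pigs 7 and 8 the difference of IVD was -0.38 (adjusted p = 0.467).

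Between restricted high and high RFI pigs, the 4 smallest p were those of GPT2, an alanine aminotransferase (difference 0.39), KYAT1 (0.55), BCAT2, a branched-chain aminotransferase (0.28), and PCBD1, which recycles the cofactor of phenylalanine hydroxylase (-0.14), with adjusted p from 0.926 to 0.933. Without pigs 7 and 8 the difference of KYAT1 was 0.19 (adjusted p = 0.946). Those of GPT2, BCAT2 and PCBD1 were then 0.30, 0.26 and -0.14 (adjusted p = 0.940 for each). Between high and low RFI pigs the 4 smallest p were those of GLDC, AUH, HSD11B1 and ACADSB, with adjusted p from 0.305 to 0.445. GLDC acts in the glycine cleavage system (difference 0.40) and AUH in leucine breakdown (-0.41). HSD11B1 regenerates active glucocorticoid (-0.22), and ACADSB acts in isoleucine breakdown (0.26). GLDC averaged 0.77 ± 0.13 in high RFI and 0.37 ± 0.36 in low RFI pigs (SD, n = 8 each).

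Markers of stellate cells and fibroblasts (6 of 9 on the array, all 6 above background on 24 of 24 arrays) were measured beside the enzymes. Their summed linear level ranged from 11.99 to 29.2 (median 15.2) in restricted high RFI, from 9.61 to 30.8 (median 19.7) in high RFI and from 17.6 to 38.5 (median 22.1) in low RFI pigs. For restricted high minus low RFI, the ranges overlapped, 4 of the 6 had an unadjusted p below 0.05 and a negative difference, where 12.7% of all probes passed that level, and LUM had a positive difference of 0.10. None of the 6 passed after adjustment, and the median difference was -0.60. Hepatocyte markers had a median difference of 0.01 in that comparison. The part of this in the enzyme values was not tested.

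Since no enzyme was called, likeness was measured for GOT1, the enzyme with the smallest p of the F test. Among 10405 named probes of other genes, the genes most like it across 24 pigs after group means were subtracted were RDH11 (r = 0.76), SARAF (0.73), MAP2K1 (0.69), BCAS2 (0.69) and CHCHD10 (0.68), each by its most similar probe.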

How the data were processed

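Liver RNA of 24 pigs was hybridised to 1-colour arrays, 150 ng per pig labelled with Cy3, per the labels' protocols. The deposited intensity values are processed signals of Agilent Feature Extraction 10.7.3.1, background-subtracted and detrended per the file headers, and mean and local background intensities of the same files served an alternative setting. Deposited columns with 0 or 1 marked spots well above background, saturated or outlying. The authors' deposited table holds log2 values that equal the logged processed signals after centring each array on its median over 27564 features. The submitters' processing notes name R 2.10.0.

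Here, log2 signals minus the array's 75th percentile were averaged over spots of a probe, and 29665 of 43603 probes, well above background on at least 6 of 8 arrays of 1 group, were kept. Names came from the scanner output and the RefSeq annotation of Sscrofa11.1, used for names only: 12368 probes carried 1 symbol, 38 several and 31197 none. Of the spots matching a member, 3 named serine dehydratase-like and 1 HPD spot described as a bacterial protein were left out. Each enzyme was represented by its brightest probe.

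The groups were tested by limma (version 3.58.1, under R 4.3.3, functions lmFit and eBayes) in a model of group alone, fitted to the 24 arrays together (Benjamini-Hochberg adjustment, tested on simulated data). Correlations used 100000 permutations within groups (Python 3.11.15, pandas 2.3.3, numpy 2.4.6, figures with matplotlib 3.10.9). The number of arrays limits the precision. Named genes are the 9 enzymes, the 4 other listed genes with the smallest p in each comparison, and the 5 most like the enzyme with the smallest F test p. The members and lists were chosen with earlier results of these data known. The alternatives were background correction, scaling, filters, slide, scan day, array weights, probe averaging, the deposited table, and leaving out arrays.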

Additional observations from a re-analysis of the deposited data

Results flagged for a closer look

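Each of the 20 probes was examined in each group of 8 for a pig whose gap to its nearest neighbour was too large a share of the group's range by Dixon's 95% critical value, which gave 60 tests and 2 pigs. By chance about 1 in 20 such groups is marked. CTH was 5.18 in high RFI pig 4, the lowest of its group, with the next pig at 5.51. The dimmest GOT1 probe, P563794, was 1.51 in low RFI pig 4, the highest of its group, with the next pig at 1.23. A gap to the nearest pig cannot mark 2 high pigs that lie close together, so it does not bear on restricted high RFI pigs 7 and 8, which had 6.95 and 6.92 for SDS.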

How the results depend on the processing

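No enzyme was called under any alternative run. No other amino acid breakdown gene was called in the 3 comparisons under the alternatives counted for these genes. Runs on a scan day alone or with single pigs left out were not counted for them. The counts at an unadjusted p below 0.05 moved (1 enzyme for restricted high minus high RFI, 1 for high minus low RFI, 5 for restricted high minus low RFI and 4 in the F test over all pigs). For restricted high minus high RFI the count was 0 on scan day 2 alone and 0 without restricted pigs 7 and 8. For high minus low RFI it was 0 on scan day 1 alone, on scan day 2 alone and without slide 3, and 2 with array weights, with only the 2 groups compared and without restricted pigs 7 and 8. For restricted high minus low RFI it was 2 on scan day 1 alone, 1 on scan day 2 alone and 1 without restricted pigs 7 and 8. In the F test it was 2 with slide as a block, without slide 3 and without restricted pigs 7 and 8, 1 on scan day 1 alone and 0 on scan day 2 alone. Scan days alone hold fewer arrays, and for the other settings the cause was not tested. Without restricted pigs 7 and 8 the share of all probes at that level was 5.04%, 10% and 10% in the 3 comparisons. For the other settings that share is not given, so a moved count cannot be read as a change particular to the enzymes.

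Leaving out each pig in turn gave 0 enzymes called throughout. At the unadjusted level it gave 1 to 2 enzymes for restricted high minus high RFI (2 without restricted pig 5), 0 to 2 for high minus low RFI (2 without high RFI pig 4), 4 to 5 for restricted high minus low RFI and 1 to 5 in the F test. For high minus low RFI the count was 0 without any 1 of low RFI pigs 1, 5, 7 and 8 or high RFI pigs 1, 2, 3 and 7. The F test count was 2 without any 1 of low RFI pigs 2, 3, 4 and 6 or restricted pigs 4 and 7, and 1 without restricted pig 8. The share of all probes at that level is not given for these runs either. The median differences ranged from 0.08 to 0.19 for restricted high minus high RFI, from 0.12 to 0.20 for high minus low RFI and from 0.30 to 0.42 for restricted high minus low RFI. Pigs that share a number across groups did not deviate together in every pair of groups (r from -0.18 to 0.42), so the numbers were not used as pairs. With the pig number as a replicate block the unadjusted counts stayed at 1, 1 and 5 for the 3 comparisons and 4 for the F test, and the block changed no call of an enzyme.

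Of 459 values of single enzymes, 25 changed sign, and none of these had been called. For restricted high minus high RFI, on scan day 2 alone GOT1 was -0.0001, SDS -0.43, HAL -0.0003 and BCAT2, the 1 named gene outside the enzymes to change sign among the 4 examined in each comparison, -0.0662. HAL was -0.0050 with quantile normalisation and -0.0044 with array weights. Without restricted pigs 7 and 8 SDS was -0.32, HAL -0.0881, AASS -0.16 and ABAT 0.0832. ABAT was also 0.0733 with normexp, 0.019 with the array median, 0.0213 with slide as a block, 0.0023 with scan day as a block, 0.0463 on scan day 1 alone and 0.0116 in the deposited table. For high minus low RFI, CTH was 0.0832 with normexp and 0.10 on scan day 2 alone, HAL was -0.0019 with slide as a block and -0.0174 on scan day 1 alone, ABAT was -0.0486 on scan day 2 alone, and HPD was -0.10 on scan day 1 alone and -0.0498 as the mean of all its probes. For restricted high minus low RFI, HAL was -0.0534 without restricted pigs 7 and 8, and ABAT was -0.15 on scan day 2 alone and -0.0063 without slide 3. The number of correlated enzyme pairs, 10 over all pigs, was 22 with normexp, 22 with group and slide subtracted and 6 by Spearman's rho. It was 4 on scan day 1 alone, 0 on scan day 2 alone and 3 without restricted pigs 7 and 8. The permutations did not keep to slides, so the count with slide subtracted cannot be compared with the others. Over all probes, calls for restricted high minus low RFI (66) ranged from 7 on scan day 2 alone to 93 with the replicate block, and from 30 to 143 with single pigs left out. Those for high minus low RFI (48) ranged from 4 on scan day 1 alone to 92 with array weights, and from 27 to 57 with single pigs left out. Those of the F test (63) ranged from 7 with normexp to 82 with array weights, and from 36 to 89 with single pigs left out.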
